A study of Homo sapiens with 6 samples.

Results

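The genes described are the ligands and receptors of the tumour necrosis factor (TNF) superfamily. They were chosen by gene name: symbols of the TNFSF and TNFRSF series, together with the members that carry older names (TNF, LTA, LTB, LTBR, FAS, FASLG, CD40, CD40LG, CD27, CD70, EDA, EDAR and EDA2R). Of 62700 rows in the count table, 45 matched, 18 ligands and 27 receptors, each on 1 row. RNA was sequenced from A673, a human line of the bone and soft tissue cancer Ewing sarcoma that is driven by the fusion protein EWS-FLI1, joined from the RNA-binding protein EWSR1 and the ETS transcription factor FLI1. The groups were 3 libraries of A673 cells with the fusion intact (parental) and 3 of A673 cells labelled EWS-FLI1 knockout, both grown in DMEM with fetal bovine serum. The series asked how the fusion affects the transcriptome and alternative splicing. The labels do not say how the knockout was made, nor whether it is 1 clone or a pool, so clonal differences and loss of the fusion cannot be told apart. Nor do they name separate cultures, and the p-values therefore cover only library-to-library spread, which may be technical.

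TNF superfamily ligands are mostly trimeric proteins of the cell surface that can be shed, and each binds 1 or more receptors. Receptors with a death domain recruit adaptors such as FADD or TRADD and can start apoptosis through caspase-8. Receptors without one bind TRAF adaptors, which lead to NF-kB and kinase signalling, and decoy receptors bind ligand without a working signalling tail. Many members were described in lymphocytes, where they act in costimulation and survival, while others shape bone, skin appendages and connective tissue.

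Libraries held between 301605666 and 342624492 estimated counts, so 3 counts, the limit that a count of 0 allows, corresponded to between 0.00752 and 0.0117 CPM, for counting error only. Levels below are TMM-scaled CPM (counts scaled to a common library size), in the order of replicates 1, 2 and 3. Positive log2 fold changes mean higher in knockout, and all come from the edgeR quasi-likelihood fit over all tested genes, with the standard error (SE). A change given with only its SE is on the log2 scale. EWSR1 averaged 293 ± 6.202 CPM in the parental and 245 ± 6.21 CPM in the knockout libraries (SD, n = 3), and FLI1 40.7 ± 1.15 and 53.1 ± 2.11 CPM, but a count per gene adds fusion and normal transcripts and does not check the knockout. All 8 Ewing sarcoma markers listed for this check, among them CD99, NR0B1 and NKX2-2, were lower in the knockout libraries, with a summed level of 3410 to 3507 CPM in the parental and 760.5 to 809 CPM in the knockout libraries. Among tested protein-coding genes 40.6% were lower. Knockout replicate 1 stood farther from the other 2 knockout libraries (chi-square per degree of freedom of 63.1 and 78.1) than these did from each other (18.2). Parental replicate 1 likewise stood farther from the other 2 parental libraries (47.8 and 31.4) than these did from each other (11.1).

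Most TNF superfamily members that could be tested were higher in the knockout libraries. Of the 45 members, 37 passed the filter on low counts, which asks for about 10 counts in at least 3 libraries. TNFSF10, TNFSF18, LTA and TNFRSF4 met it only through the knockout libraries, and EDAR only through the parental ones. The direction of these members was therefore largely set by the filter, yet all counts of members below include them. At an edgeR adjusted p under 0.05, 26 rose, 10 fell and 1, CD27, did not pass, where 73.8% of all 28485 tested genes were called, 36.3% higher and 37.5% lower. Among 16610 tested protein-coding genes 83.5% were called, 42.9% higher and 40.6% lower. The median log2 fold change of the 37 tested members was 1.67, against -0.06 for all tested genes. A log2 fold change above 1 was reached by 23 risen members and one below -1 by 7 fallen members, against 21.8% and 20.3% of all tested genes. Tested against a log2 fold change of 1 with glmTreat, 21 members were higher and 7 lower, against 18.1% and 15.5% of all genes. The genotypes did not overlap in 36 of the 37 tested members, against 76.7% of all tested genes. Without knockout replicate 1 the counts were also 26 and 10. With libraries scaled by total count only, which moved the median of all genes from -0.06 to -0.48, 22 members rose and 10 fell, while among all genes 7370 were higher and 14949 lower, in place of 10328 and 10687.

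**Figure D1:**
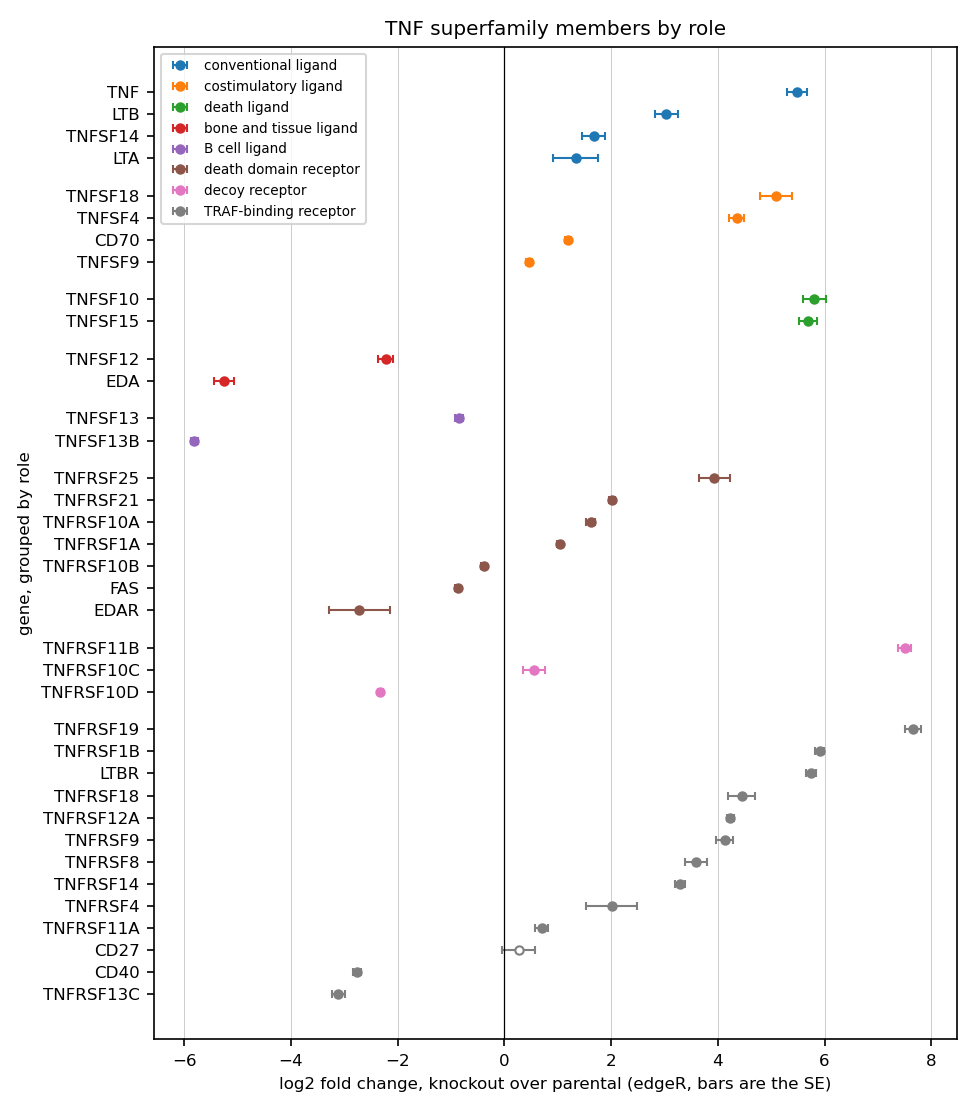
Log2 fold change, knockout over parental, of the 37 tested TNF superfamily members (horizontal axis), grouped by role, with the SE as bars. Filled points passed an adjusted p of 0.05 and the open point, CD27, did not; conventional, costimulatory and death ligands lie above 0, while the tissue and B cell ligands lie below it.

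Members of the family are often found in white blood cells, so markers of these cells were read in the same libraries. Of 12 leukocyte markers 7 were tested, 3 rose and 3 fell, and their summed level lay between 12.7 and 15.3 CPM in the parental and between 2.75 and 3.19 CPM in the knockout libraries. CD79A made up most of the parental sum: the other 11 markers summed to 0.826 to 0.961 CPM in the parental and 2.49 to 2.903 CPM in the knockout libraries, the opposite direction. CD2 and MS4A1 held 0 counts in all 6 libraries and CD3E held between 0 and 3. CD79A, a subunit of the B cell receptor, fell from 13.03 ± 1.23 to 0.265 ± 0.0740 CPM (mean ± SD, n = 3), and PTPRC, the leukocyte antigen CD45, rose from 0.127 ± 0.0272 to 1.49 ± 0.157 CPM. Of 8 fibroblast markers all 8 rose, with sums of 414 to 439 and of 55447 to 57124 CPM, and of 7 epithelial markers 4 were tested, with KRT8 and KRT18 higher and EPCAM lower (sums of 7.20 to 8.07 and 247.5 to 269.8 CPM). Of 7 endothelial markers 3 rose and 2 fell, with sums of 1.49 to 1.65 and 9.04 to 9.91 CPM. PECAM1, which went from 0.151 ± 0.0286 to 8.22 ± 0.432 CPM, made up most of the knockout sum. Of the others VWF and TIE1 rose from low levels, CLDN5 and ESAM fell, and CDH5 and KDR did not pass. Of 6 osteoblast markers 5 were tested, 3 rose and 1 fell, with sums of 56.7 to 60.0 and 219.9 to 232.5 CPM. Of all tested genes 73.8% were called, and of protein-coding ones 83.5%, 42.9% higher and 40.6% lower. The called shares of tested leukocyte (85.7%), endothelial (71.4%), epithelial (75%) and osteoblast markers (80%) were close to these. The part of other cell types in the members' values was not tested. In bulk RNA, fewer cells of a type and less RNA per cell cannot be told apart.

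Promoter sequences from RefSeq (GRCh38.p14) were available for 29 of the 45 members, as windows of 300 bases from 250 before to 50 after 1 RefSeq transcript start a gene. For 24 of the 29 this start lay within 1000 bases of the outermost start in GENCODE 29, and for TNFSF13B, TNFSF15, LTBR, TNFRSF9 and TNFSF4 it lay farther inside the gene, by 18389, 13596, 9117, 2326 and 1781 bases, so their windows belong to an inner transcript start. They were searched on both strands for GGAAGGAA, a short form of the GGAA repeat that EWS-FLI1 binds, for GGGA and TTCC with any 2 bases between them, a form of the NF-kB site (the NF-kB form below), and for TGANTCA, the AP-1 site. GGAAGGAA stood in 1 of 29 member promoters and in 3.58% of all 27305 promoters of that length, the NF-kB form in 2 and in 1.63%, and TGANTCA in 7 and in 7.76%. Among the 20 risen members with a promoter, the NF-kB form stood in 2 (LTB and TNFRSF9) and TGANTCA in 4 (TNFSF14, TNFSF15, TNFRSF8 and TNFRSF9). Of the 3 fallen members, FAS held GGAAGGAA and TGANTCA. A match is only a run of letters, not evidence of a bound site. The 250 bases before the start are shown 5′ to 3′ on the gene's strand for 4 members with a match, and for TNFRSF19 and TNFSF13B, the members with the most positive and the most negative fold change, whose windows held no match. Capitals mark matches.
LTB (chr6:31582426-31582675, minus strand; the NF-kB form on the reverse strand, first base 86 before the start): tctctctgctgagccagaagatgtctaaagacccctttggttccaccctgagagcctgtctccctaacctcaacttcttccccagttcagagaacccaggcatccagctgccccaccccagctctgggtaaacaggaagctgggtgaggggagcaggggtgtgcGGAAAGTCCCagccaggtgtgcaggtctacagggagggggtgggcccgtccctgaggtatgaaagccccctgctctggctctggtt
TNFRSF9 (chr1:7940840-7941089, minus strand; the NF-kB form on both strands, overlapping, from 74 and 73 before the start, and TGANTCA from 44): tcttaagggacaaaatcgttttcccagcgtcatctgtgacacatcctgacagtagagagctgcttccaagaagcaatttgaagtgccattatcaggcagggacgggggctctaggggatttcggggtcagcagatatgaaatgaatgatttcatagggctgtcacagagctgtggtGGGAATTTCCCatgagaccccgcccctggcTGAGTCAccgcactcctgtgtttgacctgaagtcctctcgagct
TNFSF15 (chr9:114792531-114792780, minus strand; TGANTCA from 120 before the start): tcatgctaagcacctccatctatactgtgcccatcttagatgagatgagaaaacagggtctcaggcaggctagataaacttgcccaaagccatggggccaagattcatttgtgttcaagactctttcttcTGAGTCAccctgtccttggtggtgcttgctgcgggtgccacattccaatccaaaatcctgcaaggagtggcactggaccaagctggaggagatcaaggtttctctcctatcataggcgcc
FAS (chr10:88990548-88990797, plus strand; TGANTCA from 242 and GGAAGGAA on the reverse strand from 197 before the start): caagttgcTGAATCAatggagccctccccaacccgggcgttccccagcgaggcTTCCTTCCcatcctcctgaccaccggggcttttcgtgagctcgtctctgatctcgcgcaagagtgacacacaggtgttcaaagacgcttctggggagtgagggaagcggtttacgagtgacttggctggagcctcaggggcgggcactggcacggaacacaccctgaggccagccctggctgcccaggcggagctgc
TNFRSF19 (chr13:23570162-23570411, plus strand): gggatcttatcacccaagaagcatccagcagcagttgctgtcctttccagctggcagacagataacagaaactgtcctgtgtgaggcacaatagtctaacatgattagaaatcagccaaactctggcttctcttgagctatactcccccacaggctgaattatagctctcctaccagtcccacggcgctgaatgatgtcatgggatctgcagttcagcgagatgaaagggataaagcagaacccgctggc
TNFSF13B (chr13:108269379-108269628, plus strand): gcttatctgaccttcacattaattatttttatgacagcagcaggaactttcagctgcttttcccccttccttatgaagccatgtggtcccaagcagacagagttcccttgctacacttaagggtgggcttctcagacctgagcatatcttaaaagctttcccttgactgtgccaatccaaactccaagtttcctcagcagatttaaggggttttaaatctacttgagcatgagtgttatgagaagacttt

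The ligands grouped here as conventional, TNF, the lymphotoxins and LIGHT, were all higher in the knockout libraries, 4 of 4. Of protein-coding genes 42.9% were higher, and 4 genes are few. TNF, the founding inflammatory cytokine of the family, held 0.0368, 0.0609 and 0.0652 CPM in the parental and 2.19, 2.46 and 2.69 CPM in the knockout libraries. Every knockout library lay above every parental one, and TNF rose by 5.48 (SE 0.19), or 44.7-fold (edgeR adjusted p = 3.88e-17). The parental libraries held only 14, 23 and 26 counts of TNF, so the size of this fold rests on few counts. LTB, which anchors lymphotoxin alpha at the cell surface and whose promoter is shown above, held 0.0946, 0.0662 and 0.0953 CPM in the parental and 0.642, 0.737 and 0.733 CPM in the knockout libraries, again without overlap, and rose by 3.04 (SE 0.21). TNFSF14 (LIGHT), a ligand of LTBR and HVEM, went from 0.134 ± 0.0147 to 0.426 ± 0.0476 CPM and rose by 1.67 (SE 0.21). LTA (lymphotoxin alpha) stayed near the detection limit, with 15, 8 and 17 counts in parental and 23, 29 and 17 counts in knockout libraries. It rose by 1.34 (SE 0.42), with an edgeR adjusted p of 0.00672 and no overlap in CPM, a call that was lost with total counts only (0.91, adjusted p = 0.0520). TNF, LTA and LTB lie next to each other on chromosome 6, from the start of LTA at 31572054 to the end of LTB at 31582522 (GRCh38), and the fold changes of these neighbours ranged from 1.34 to 5.48.

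The costimulatory ligands that could be tested also rose, 4 of 4, from very different starting levels, where 42.9% of protein-coding genes were higher. TNFSF4, the OX40 ligand that sustains T cell responses, held 0.215, 0.328 and 0.223 CPM in the parental and 5.56, 5.13 and 4.97 CPM in the knockout libraries. Parental replicate 2 was the highest of its group, and no library overlapped (log2 fold change 4.35, SE 0.14, edgeR adjusted p = 9.76e-17). TNFSF18, the ligand of GITR and the neighbour of TNFSF4 on chromosome 1, had 11, 4 and 5 counts in parental and 148, 144 and 186 counts in knockout libraries and rose by 5.09 (SE 0.30). CD70, the ligand of CD27 and a target of cancer immunotherapy, was present in both genotypes, with 13.4, 12.1 and 12.1 CPM in the parental and 29.02, 29.1 and 28.1 CPM in the knockout libraries. The groups were well apart, and CD70 rose 2.29-fold (edgeR adjusted p = 1.01e-14). TNFSF9, the ligand of 4-1BB, went from 7.84 ± 0.0704 to 10.8 ± 0.506 CPM and rose by 0.46 (SE 0.061), but the difference was 0.04 with total counts only (adjusted p = 0.485), so its call depends on the scaling. CD40LG, the T cell ligand of CD40, had at most 5 counts in a library. TNFSF8, the ligand of CD30, had 0 counts in all parental libraries and 2, 5 and 3 counts in knockout libraries, and neither was tested.

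Both tested ligands of the death receptor branch were among the steeper rises, where 42.9% of protein-coding genes were higher. TNFSF10, or TRAIL, which can kill tumour cells through death receptors, held 0.0315, 0.0344 and 0.0176 CPM in the parental and 1.42, 1.698 and 1.59 CPM in the knockout libraries. The lowest knockout library lay far above the highest parental one, a rise of 5.81 (SE 0.22) in log2 units, or 55.96-fold (edgeR adjusted p = 2.51e-16). The parental libraries held only 12, 13 and 7 counts of TNFSF10 and 31, 18 and 24 of TNFSF15, so the size of these folds rests on few counts. TNFSF15 (TL1A), the ligand of DR3, held 0.0814, 0.0476 and 0.0602 CPM in the parental and 3.16, 3.53 and 3.11 CPM in the knockout libraries, with no overlap and a log2 fold change of 5.69 (SE 0.17). FASLG, which activates FAS and is mainly made by cytotoxic lymphocytes, had 3, 7 and 3 counts in parental and 4, 4 and 3 counts in knockout libraries and was not tested.

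The ligands of tissue patterning and of B cell survival moved the other way, 4 of 4 tested, where 40.6% of protein-coding genes were lower. These are 2 roles with 2 tested ligands each. TNFSF13B (BAFF), the survival factor of B cells, was the highest ligand per kilobase of exon in the parental libraries. It reached 44.5, 49.3 and 47.4 CPM there and 0.884, 0.818 and 0.820 CPM in the knockout libraries. The change of -5.81 (SE 0.072), a level 56.00-fold lower, was the most negative of all members (edgeR adjusted p = 3.12e-25). TNFSF13 (APRIL), its relative that supports plasma cells, fell from 6.55 ± 0.146 to 3.65 ± 0.111 CPM (log2 fold change -0.85, SE 0.074). With glmTreat it did not pass against a log2 fold change of 1. TNFSF12 (TWEAK), a regulator of tissue repair, lies directly upstream of TNFSF13 on chromosome 17 and fell from 2.34 ± 0.334 to 0.501 ± 0.0815 CPM (log2 fold change -2.22, SE 0.15). A readthrough gene that joins both, TNFSF12-TNFSF13, shares 553 and 1263 exon bases with them and held a mean of 17.3 estimated counts in parental and 0 in knockout libraries, against means of 903 and 132 for TNFSF12. EDA (ectodysplasin A), which directs the growth of hair, teeth and sweat glands, held 1.89, 1.88 and 2.08 CPM in the parental and 0.0587, 0.0424 and 0.0508 CPM in the knockout libraries. The groups were far apart (log2 fold change -5.26, SE 0.18, edgeR adjusted p = 5.07e-17). TNFSF11 (RANKL), the driver of osteoclast formation, had between 0 and 6 counts in each library and was not tested. The summed level of all 18 ligands was 77.5 to 80.3 CPM in the parental and 57.8 to 59.9 CPM in the knockout libraries. Without TNFSF13B the direction turned, with 30.9 to 33.02 CPM in the parental and 57.02 to 59.1 CPM in the knockout libraries.

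**Figure D2:**
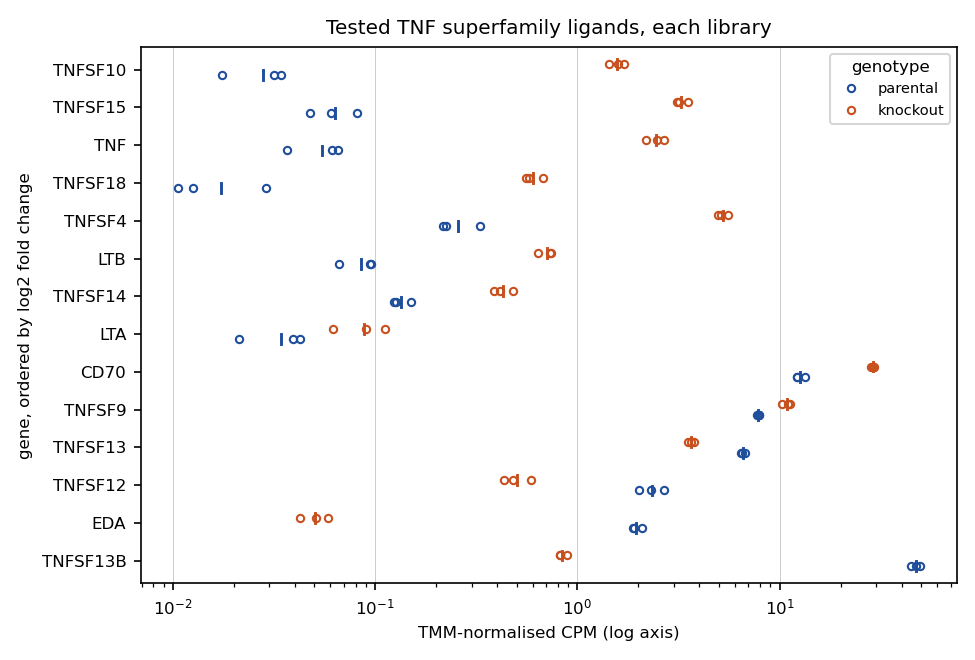
TMM-normalised CPM (log axis) of the 14 tested ligands in each of the 3 parental (blue) and 3 knockout (orange) libraries, with short bars at the group means. No ligand's groups overlap: 10 are higher in the knockout libraries and 4, from TNFSF13 down to TNFSF13B, are lower.

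Death domain receptors moved in both directions, 4 higher and 3 lower of 7, where 42.9% of protein-coding genes were higher and 40.6% lower. TNFRSF1A, the widely expressed TNF receptor 1, held 77.7, 72.6 and 74.3 CPM in the parental and 154, 157 and 149 CPM in the knockout libraries. It was 2.05-fold higher, with no overlap (log2 fold change 1.03, SE 0.048, edgeR adjusted p = 1.3e-14). TNFRSF21 (DR6), which acts in neurons and lymphocytes, reached 26.4, 25.1 and 24.5 CPM in the parental and 106, 103 and 99.03 CPM in the knockout libraries and rose by 2.02 (SE 0.051). TNFRSF25 (DR3), the receptor of TNFSF15, held 1.16, 1.05 and 0.955 CPM in the parental and 10.96, 18.1 and 19.3 CPM in the knockout libraries. Knockout replicate 1 was the lowest of its group yet well above the parental libraries, and the log2 fold change of 3.94 (SE 0.29) was 4.16 without it. TNFRSF25 shares 104 exon bases with PLEKHG5 on the same strand, a gene with means of 2050 estimated counts in parental and 13448 in knockout libraries, and the part of those reads was not tested. FAS (CD95), the receptor of FAS ligand, held 63.6, 66.1 and 66.7 CPM in the parental and 35.5, 36.5 and 35.01 CPM in the knockout libraries. It fell, with no overlap (log2 fold change -0.88, SE 0.048, edgeR adjusted p = 2.28e-13). FAS shares 380 exon bases with ACTA2, the smooth muscle actin gene on the opposite strand, which held means of 60500 estimated counts in parental and 298264 in knockout libraries, and the labels state no strand-specific kit. EDAR, the ectodysplasin receptor, was near the detection limit, with 27, 19 and 24 counts in parental and 1, 4 and 2 counts in knockout libraries (log2 fold change -2.72, SE 0.57, edgeR adjusted p = 0.000194).

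The membrane receptors of TRAIL, whose genes are neighbours on chromosome 8, moved in both directions, 2 higher and 2 lower. Protein-coding genes as a whole split in a like way, with 42.9% higher and 40.6% lower. TNFRSF10B (DR5), a death receptor of TRAIL, held 221, 222 and 224 CPM in the parental and 168, 174 and 167 CPM in the knockout libraries and fell slightly, with no overlap (log2 fold change -0.39, SE 0.046, edgeR adjusted p = 1.11e-07). TNFRSF10A (DR4), the other death receptor, held 2.199, 2.096 and 2.37 CPM in the parental and 7.21, 7.07 and 6.21 CPM in the knockout libraries and rose by 1.62 (SE 0.087). TNFRSF10D (DcR2), a decoy with a shortened death domain, held 62.96, 64.4 and 63.7 CPM in the parental and 13.02, 12.9 and 12.2 CPM in the knockout libraries. This was 5.01-fold lower, the most marked fall of the 4 (log2 fold change -2.32, SE 0.051, edgeR adjusted p = 1.22e-20). TNFRSF10C (DcR1), a decoy held in the membrane by a lipid anchor, was sparse, at 0.277 ± 0.0591 CPM in the parental and 0.408 ± 0.0439 CPM in the knockout libraries. Its rise of 0.56 (SE 0.20), at an edgeR adjusted p of 0.0178, did not pass with total counts only (0.13, adjusted p = 0.562), with upper quartile factors (0.35, adjusted p = 0.126), or without parental replicate 1, parental replicate 2 or knockout replicate 3 (adjusted p between 0.0528 and 0.0822), and 485 of its exon bases are shared with a noncoding gene. The 4 genes are close relatives, so their values are uncertain where a read matches more than 1 of them. Of the summed level of the 4 receptors per kilobase of exon, TNFRSF10B made up 69.5% ± 0.179 in the parental and 84.3% ± 0.505 in the knockout group (SD, n = 3). TNFRSF10D made up 29.1% ± 0.248 and 9.21% ± 0.208, and TNFRSF10A 1.22% ± 0.0727 and 5.93% ± 0.383.

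TNFRSF11B (osteoprotegerin), a secreted decoy that captures RANKL and TRAIL, had one of the steepest rises. It held 0.0394, 0.0529 and 0.0577 CPM in the parental and 9.35, 9.07 and 9.02 CPM in the knockout libraries, which was 181-fold higher (log2 fold change 7.50, SE 0.13, edgeR adjusted p = 7.56e-23). The parental mean of 19.3 counts was 0.802% of the knockout mean, close to what the most changed abundant genes kept: among 3251 genes with at least 20000 counts in knockout libraries, the 20 with the lowest parental share kept a median of 0.586%. The SE does not cover such a residue, whose source was not tested. TNFRSF6B (DcR3), the decoy of FAS ligand and TL1A, had 0 counts in all 6 libraries. All 1141 of its exon bases lie within the readthrough gene RTEL1-TNFRSF6B, which held means of 5400 estimated counts in parental and 7430 in knockout libraries, so this value does not show that TNFRSF6B was silent.

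Of the 16 receptors that signal mainly through TRAF adaptors, 13 were tested: 10 rose, 2 fell and CD27 missed the threshold. Their median log2 fold change was 3.59, against -0.06 for all tested genes. Of all tested genes 36.3% were higher and 37.5% lower, and of protein-coding ones 42.9% and 40.6%. TNFRSF12A (FN14), the receptor of TWEAK and a gene of injured and growing tissue, held 8.85, 7.61 and 7.65 CPM in the parental and 149, 153 and 152 CPM in the knockout libraries. All knockout libraries lay above all parental ones, 18.8-fold by the fitted value (log2 fold change 4.23, SE 0.063, edgeR adjusted p = 8.88e-24). TNFRSF1B, the more restricted TNF receptor 2, held 0.567, 0.482 and 0.461 CPM in the parental and 30.4, 31.1 and 29.2 CPM in the knockout libraries. TNFRSF1B rose by 5.91 (SE 0.08) and TNFRSF1A by 1.03, though per kilobase of exon TNFRSF1A stayed the higher of the pair in both genotypes. LTBR, the lymphotoxin beta receptor of stromal cells, held 0.888, 0.775 and 0.629 CPM in the parental and 40.4, 42.1 and 40.6 CPM in the knockout libraries and rose by 5.75 (SE 0.093), with an edgeR adjusted p of 8.14e-18. TNFRSF19 (TROY), a receptor of skin and nervous system progenitors, held 0.0420, 0.0582 and 0.0301 CPM in the parental and 9.14, 9.01 and 8.22 CPM in the knockout libraries. The change of 7.65 (SE 0.14) was the highest of all members, and the parental mean of 16.7 counts, 0.721% of the knockout mean, was also near the residue described for TNFRSF11B. TNFRSF14 (HVEM), the receptor of LIGHT, held 2.14, 1.76 and 2.08 CPM in the parental and 17.03, 20.5 and 20.98 CPM in the knockout libraries (log2 fold change 3.29, SE 0.096). Knockout replicate 1 was the lowest knockout library for TNFRSF14, TNFRSF18 and TNFRSF25, but stayed above all parental libraries.

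The TRAF-binding receptors TNFRSF9, TNFRSF8, TNFRSF18 and TNFRSF4 each rose, while CD27, which has the same role, did not pass. TNFRSF9 (4-1BB), whose promoter holds the NF-kB and AP-1 letters shown above, held 0.150, 0.193 and 0.251 CPM in the parental and 3.74, 3.55 and 3.14 CPM in the knockout libraries (log2 fold change 4.13, SE 0.16, edgeR adjusted p = 1.38e-15). TNFRSF8 (CD30), a lymphoma marker, went from 0.0740 ± 0.0175 to 0.901 ± 0.0757 CPM (log2 fold change 3.59, SE 0.21), and TNFRSF18 (GITR) from 0.0459 ± 0.0152 to 1.01 ± 0.237 CPM (log2 fold change 4.45, SE 0.25). TNFRSF4 (OX40) had 11, 5 and 8 counts in parental and 14, 34 and 19 counts in knockout libraries (log2 fold change 2.01, SE 0.48, edgeR adjusted p = 0.000727). These groups did not overlap in CPM, yet for TNFRSF4 the lowest knockout and the highest parental library differed by only 3 counts. TNFRSF11A (RANK), the receptor of RANKL on osteoclast precursors, went from 0.857 ± 0.0821 to 1.39 ± 0.0539 CPM, a rise of 0.70 (SE 0.13) that did not pass with total counts only (0.27, adjusted p = 0.0552).

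The receptors of B cells and antigen-presenting cells that fell were CD40 and TNFRSF13C. CD40, which receives help signals from T cells, held 14.3, 13.5 and 13.4 CPM in the parental and 1.91, 2.18 and 1.999 CPM in the knockout libraries, a level 6.77-fold lower (log2 fold change -2.76, SE 0.073, edgeR adjusted p = 3.03e-19). TNFRSF13C, the BAFF receptor, held 8.999, 9.44 and 8.95 CPM in the parental and 0.853, 0.995 and 1.302 CPM in the knockout libraries (log2 fold change -3.12, SE 0.12, edgeR adjusted p = 5.48e-12). Both groups were clearly apart, and knockout replicate 3 was the highest of its group for TNFRSF13C. The other BAFF and APRIL receptors, TNFRSF13B (TACI) and TNFRSF17 (BCMA), had between 2 and 15 counts in each library and were not tested, nor was EDA2R, a receptor of ectodysplasin, with between 3 and 8. CD27, the receptor of CD70, held 0.144, 0.0847 and 0.171 CPM in the parental and 0.110, 0.228 and 0.145 CPM in the knockout libraries, which overlapped (log2 fold change 0.27, SE 0.31, edgeR adjusted p = 0.453). It shares 522 exon bases with CD27-AS1 on the opposite strand, which held means of 3708 and 3767 estimated counts against 51.6 and 42.3 for CD27, so its reads cannot be told apart with certainty. In sum over all 27 receptors, the level was 488 to 492 CPM in the parental and 758 to 784 CPM in the knockout libraries.

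**Figure D3:**
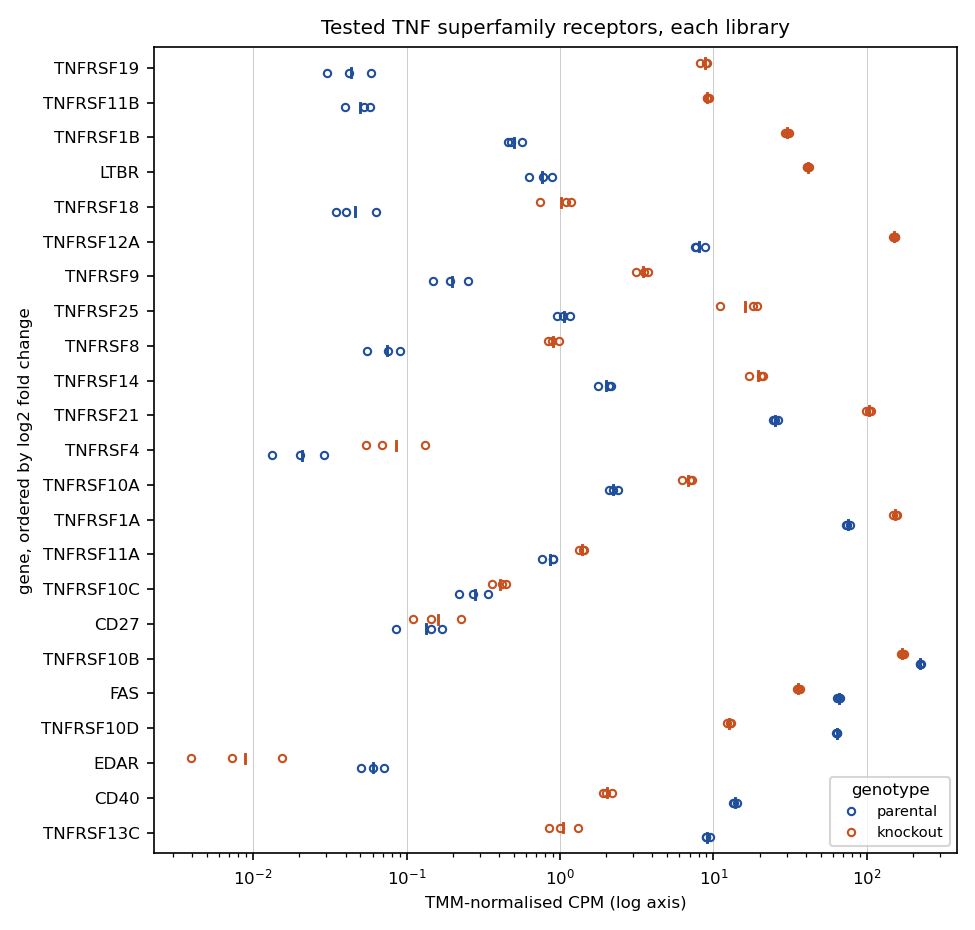
TMM-normalised CPM (log axis) of the 23 tested receptors in each of the 3 parental (blue) and 3 knockout (orange) libraries, with short bars at the group means. From TNFRSF19 at the top to TNFRSF10C the knockout libraries lie higher, CD27 overlaps, and the 6 genes below it lie lower in the knockout libraries.

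Known ligand and receptor partners were then set side by side. Of 32 pairs listed from general knowledge, both partners were called in 19, and in 16 of these they moved in the same direction: both rose in 14 and both fell in 2. The pairs that fell together were EDA with EDAR and TNFSF13B with TNFRSF13C. Among those that rose together were TNF with TNFRSF1A and TNFRSF1B, LTB with LTBR, TNFSF15 with TNFRSF25, TNFSF4 with TNFRSF4, TNFSF18 with TNFRSF18 and TNFSF9 with TNFRSF9. The 3 opposed pairs were TNFSF12, which fell, with its receptor TNFRSF12A, which rose, and TNFSF10, which rose, with TNFRSF10B and TNFRSF10D, which fell. Pairs share members, so they are not independent, and with most members risen many pairs agree in direction by their numbers alone. For FAS, CD40 and TNFRSF11A the matching ligands FASLG, CD40LG and TNFSF11 were each at or below 7 counts in every library.

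Levels of different genes were compared per kilobase of merged exon (GENCODE 29, GRCh38), as mean ± SD of 3 libraries. In the parental libraries TNFRSF10B came first with 43.05 ± 0.317 CPM per kilobase, followed by TNFRSF1A with 18.7 ± 0.644 and TNFRSF10D with 18.00 ± 0.201, whose SDs overlap. FAS with 15.4 ± 0.379 and the ligand TNFSF13B with 15.4 ± 0.790 came next, also within each other's spread. CD70 followed with 8.19 ± 0.481 and TNFRSF21 with 7.05 ± 0.258. In the knockout libraries TNFRSF12A moved from rank 10 to rank 1, from 4.35 ± 0.380 to 81.7 ± 1.15 CPM per kilobase. TNFRSF1A stayed at rank 2 with 38.3 ± 0.950, ahead of TNFRSF10B with 32.9 ± 0.671 and TNFRSF21 with 28.6 ± 0.987. CD70 was the highest ligand there, with 18.8 ± 0.350 CPM per kilobase. TNFSF13B moved from rank 5 to rank 26, and TNFRSF1B and LTBR from ranks 19 and 20 to ranks 7 and 8. The exon lengths merge all isoforms and are not those kallisto used, so the order is approximate.

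**Figure D4:**
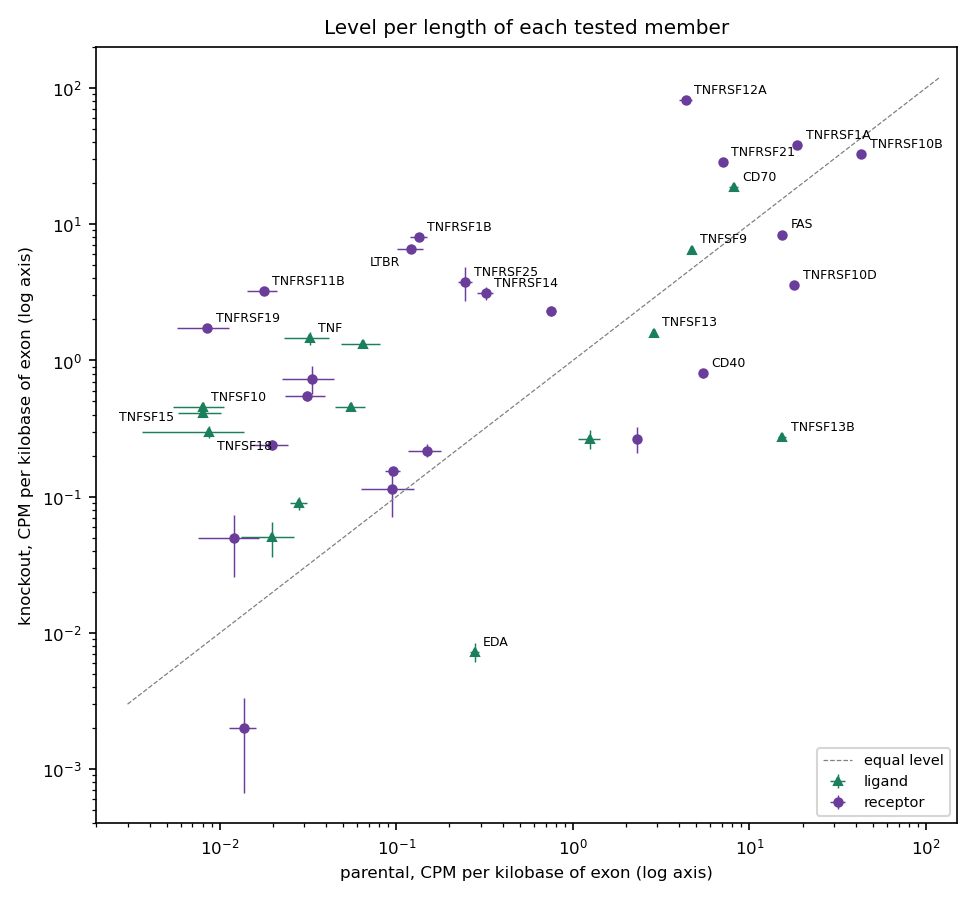
Mean level per kilobase of merged exon in parental (horizontal, log axis) and knockout libraries (vertical, log axis) for the 37 tested members, with SDs of 3 libraries as bars and a dashed line of equal level. Triangles are ligands and circles receptors; TNFRSF12A is the highest point and TNFSF13B lies far below the line.

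Several members sit in small gene clusters. With gaps of at most 500000 bases, 24 of the 45 members formed 9 clusters. On chromosome 6 TNF, LTA and LTB rose together, on chromosome 19 TNFSF9 (6530999 to 6535928), CD70 and TNFSF14 did, and on chromosome 17 TNFSF12 and TNFSF13 both fell. On chromosome 12 the neighbours TNFRSF1A (6328757 to 6342114) and LTBR (6375045 to 6391571) rose by 1.03 and 5.75 on the log2 scale, while CD27 close by did not pass. SCNN1A shares 422 exon bases with LTBR on the opposite strand and held means of 14.7 estimated counts in parental and 22.8 in knockout libraries. The TRAIL receptor cluster on chromosome 8 held 2 risen and 2 fallen genes. On chromosome 1, which carries 10 members in several groups, all 9 tested members rose, where 46.7% of the 1667 tested protein-coding genes of that chromosome did. TNFSF4 and TNFSF18 rose there from 173039960 to 173207313, while FASLG, less than 500000 bases away, stayed below the filter.

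Genes listed around the family, which transmit its signals, respond to NF-kB, process its proteins or are related to it, were also more often higher than lower. The 6 lists held 85 genes, of which 83 were tested: 67 rose, 12 fell and 4 missed the threshold, or 80.7% higher and 14.5% lower, against 36.3% and 37.5% of all tested genes and 42.9% and 40.6% of protein-coding ones. Their median log2 fold change was 1.04, against -0.06 for all tested genes. With total counts only 53 rose and 18 fell, so that rises made up 74.6% in place of 84.8% of the calls, while all genes then gave 7370 rises and 14949 falls. Without parental replicate 3 the numbers were 67 and 7. Of 27 adaptors and ubiquitin enzymes 24 rose and 3 fell. TNFAIP3 (A20), which shuts off TNF receptor signalling, went from 2.67 ± 0.0766 to 121 ± 1.86 CPM (log2 fold change 5.50, SE 0.058), and BIRC3, a ubiquitin ligase of the TNF receptor complex, from 0.264 ± 0.0247 to 10.7 ± 0.646 CPM (log2 fold change 5.34, SE 0.10). MAP3K14, the kinase of the alternative NF-kB pathway used by LTBR, CD40 and FN14, rose by 3.84 (SE 0.06), and TNIP1, a partner of A20, by 2.43 (SE 0.051). TRAF4 and EDARADD, the adaptor of EDAR, fell, with log2 fold changes of -0.67 and -1.44. TAB1 fell only slightly (log2 fold change -0.13, SE 0.053, edgeR adjusted p = 0.0308).

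Within the death arm 7 of 10 tested genes rose and FAF1 fell slightly (log2 fold change -0.12, SE 0.05, edgeR adjusted p = 0.0382). The called share, 8 of 10, was close to the 73.8% of all tested genes and the 83.5% of protein-coding genes. CASP8, the caspase that death receptors activate, held 2.17, 2.21 and 2.17 CPM in the parental and 21.6, 22.02 and 21.2 CPM in the knockout libraries (log2 fold change 3.31, SE 0.062, edgeR adjusted p = 5.71e-22). MLKL, the executor of necroptosis, rose from 0.133 ± 0.0208 to 5.97 ± 0.242 CPM, while its upstream kinase RIPK3 was too low to be tested, at 0.00953 ± 0.00313 and 0.0189 ± 0.00322 CPM. FAIM, a FAS inhibitor, rose by 2.33 (SE 0.098). CFLAR, the inhibitor of caspase-8 also called c-FLIP, rose by 0.81 (SE 0.049), while BID, at 0.05 (SE 0.051), and CASP10, at -0.06 (SE 0.15), did not pass.

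Of 13 NF-kB subunits and inhibitors 11 rose and 2 fell, with a median of 1.93. The 2 that fell were NFKBIB (log2 fold change -0.53, SE 0.061) and CHUK (log2 fold change -0.16, SE 0.054, edgeR adjusted p = 0.0115). Protein-coding genes as a whole were 42.9% higher and 40.6% lower. RELB, a subunit of the alternative pathway, went from 7.42 ± 0.458 to 49.8 ± 0.747 CPM (log2 fold change 2.75, SE 0.057), NFKB1 rose by 2.32 (SE 0.053), and the regulators NFKBIZ and BCL3 by 5.58 (SE 0.062) and 3.41 (SE 0.064). Of 19 genes known to respond to NF-kB 14 rose, 4 fell and CCL5 did not pass, with a median of 5.43. The chemokines CXCL8 and CCL2 went from 1.42 ± 0.0412 to 284 ± 10.6 and from 1.63 ± 0.0892 to 411 ± 24.5 CPM, and the adhesion molecule ICAM1 from 1.05 ± 0.0331 to 94.5 ± 2.698 CPM. TNFAIP2, named for its induction by TNF, rose by 6.94 (SE 0.072). Not all genes of this list rose: TNFAIP6 (-2.00) and CD83 (-1.77) fell, as did PTGS2, from 4.16 ± 0.170 to 2.08 ± 0.327 CPM. CXCL10 (-1.27, SE 0.49) also fell, with only 26, 22 and 23 counts in parental and 2, 7 and 11 in knockout libraries. CXCL1, which rose, was as sparse, with 11, 13 and 22 counts in parental and 16, 23 and 26 in knockout libraries. The genes of this list also respond to other signals, and no value here measures the activity of a TNF receptor.

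Of 8 genes that shed or process the ligands and receptors 6 rose and SPPL2A fell, a called share of 87.5%, close to the 83.5% of protein-coding genes. SPPL2B did not pass (log2 fold change 0.11, SE 0.12, edgeR adjusted p = 0.440). SPPL2A, a membrane protease, held 49.1, 54.5 and 51.5 CPM in the parental and 49.6, 46.8 and 44.3 CPM in the knockout libraries, which overlap (log2 fold change -0.14, SE 0.054, edgeR adjusted p = 0.0239). ADAM17, the protease that releases TNF, rose from 50.5 ± 1.96 to 128 ± 6.43 CPM (log2 fold change 1.34, SE 0.052), and RHBDF2, which carries ADAM17 to the surface, from 8.16 ± 0.194 to 105 ± 0.961 CPM (log2 fold change 3.69, SE 0.052). TIMP3, which inhibits ADAM17, rose as well (log2 fold change 2.05, SE 0.051), as did FURIN (log2 fold change 1.04, SE 0.053), which cleaves the precursors of several ligands. Among 7 relatives and partners outside the name rule 6 were tested, 5 rose and 1 fell, against 42.9% and 40.6% of protein-coding genes. NGFR, the neurotrophin receptor of the same family, fell from 26.9 ± 1.52 to 4.48 ± 0.311 CPM (log2 fold change -2.59, SE 0.066). LGR4, reported as a further receptor of RANKL, rose by 2.54 (SE 0.053), and the TNF receptor relative RELT and its homologue RELL1 by 0.64 (SE 0.062) and 2.07 (SE 0.063).

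**Figure D5:**
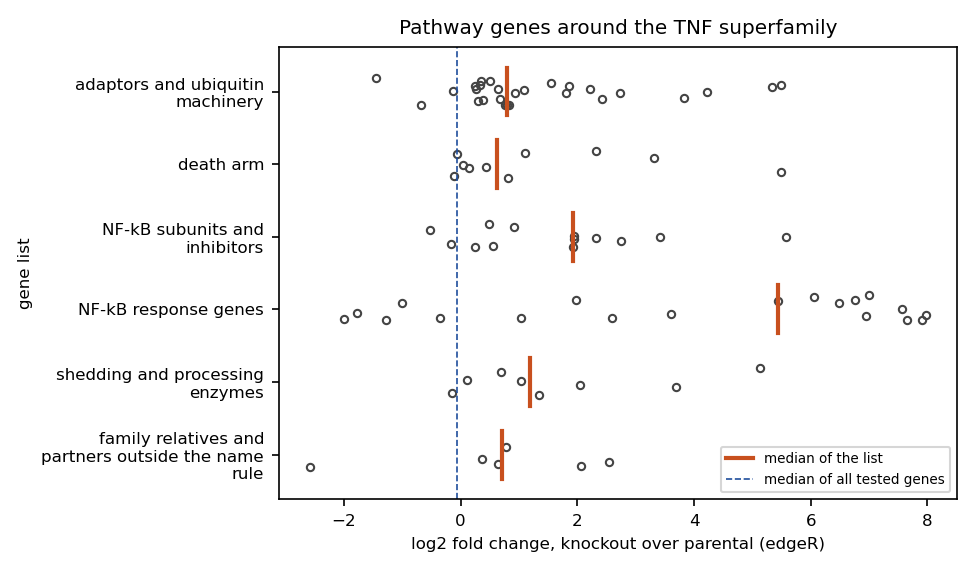
Log2 fold change, knockout over parental, of the tested genes of 6 lists around the TNF superfamily (open circles), with the median of each list (orange bar) and of all tested genes (dashed line at -0.06). The list medians lie between 0.62 for the death arm and 5.43 for the NF-kB response genes.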

How the data were processed

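The authors deposited 1 table of estimated counts per gene for 6 libraries, made with kallisto 0.48.0 on hg38 per the submitters' processing notes. Polyadenylated RNA was used per the labels' protocols, with no strand-specific kit stated. Which annotation was used, and how transcripts were summed to genes, is not given in the sources used here. Estimated counts were rounded and fitted in R 4.3.3 with edgeR 4.0.16 (filterByExpr, minimum count 10 and minimum total 15; TMM; robust quasi-likelihood, genotype as the only term; two-sided, Benjamini-Hochberg over 28485 genes at 0.05). The steps were tested on simulated data in which far fewer genes changed than were called here. That test therefore does not check the scaling under so wide a change. The SE is the log2 fold change divided by the square root of F. No pair of replicates agreed within sampling noise (chi-square per degree of freedom from 11.1 to 78.1). Overlaps, positions and merged exon lengths came from GENCODE 29 (GRCh38), promoters from RefSeq. Alternatives used DESeq2 1.42.0 and limma 3.58.1, other scalings and filters, and left out each library. Named were all members, EWSR1 and FLI1, and up to 4 genes per list with the smallest adjusted p at 1 CPM or more, of which 1 is not reported here. Others named from the lists (those that fell or did not pass in counts of 5 or fewer, CFLAR, RIPK3, CXCL1 and the cell type markers) were chosen after their values were seen. Members and lists were chosen with earlier results of these data known.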

Additional observations from a re-analysis of the deposited data

How the results depend on the processing

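Over the 16 alternatives the risen members numbered between 18 and 27 and the fallen ones between 7 and 10, the lowest rises with a filter of 1 CPM, which tested 27 members, and the lowest falls with glmTreat. CD27, which did not pass, changed sign with total counts only (-0.15) and without knockout replicate 2 (-0.053, with values up to 0.50 when other libraries were left out), as did FLI1 with total counts only (-0.040). No called member changed sign. Among all genes, the 1 CPM filter gave 6650 higher and 6975 lower, and glmTreat 5153 and 4412. For the pathway lists glmTreat gave 40 and 4, and leaving out 1 library gave between 66 and 68 higher and between 7 and 10 lower. The replicate block gave 26 risen and 10 fallen members, 67 and 10 pathway genes, and 10041 and 10377 of all genes. It changed no member's call. Same-numbered libraries did not deviate together (correlations of -0.16, -0.06 and 0.03, and between -0.13 and 0.16 for other pairs). With 3 libraries per genotype this cannot show whether the numbers pair the samples. The filter set how many members were tested: with none, 44 were, of which 27 rose and 10 fell.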
